A study of Mus musculus with 2 samples.

Results

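The genes of the mitochondrial respiratory chain were compared between skin of newborn mice without keratin 5 (K5-/-, titled ko_skin) and skin of newborn wild type mice (wt_skin). Members were chosen by symbol: probe sets with 1 gene symbol that starts with Nduf, Uqcr, Atp5, Cox4, Cox5, Cox6, Cox7 or Cox8, or that is Sdha, Sdhb, Sdhc, Sdhd, Cyc1 or Cycs. This gave 73 genes with 101 probe sets, of 8251 genes with 10833 single-symbol probe sets on the array. No gene encoded by mitochondrial DNA falls under these symbols. Complex I holds 31 of the members, complex II 4, complex III 8, complex IV 15 and complex V 14, and Cycs, which encodes cytochrome c, stands alone.

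Both groups were neonates whose skin was frozen at birth. Total RNA of 6 animals per genotype was pooled, and 1 array was hybridised per pool, so the comparison has no replicates, no test and no error between animals. The labels name the knockout as K5-/- and give neither the allele nor the strain or sex of either group. The source name reads epidermis where the titles and the protocol read skin, and dermal collagens and muscle genes were bright on both arrays.

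The respiratory chain sits in the inner mitochondrial membrane. Complexes I and II pass electrons from NADH and succinate to ubiquinone, complex III passes them to cytochrome c and complex IV to oxygen. Complexes I, III and IV pump protons, and complex V, the ATP synthase, uses the return of the protons to make ATP. Genes for these subunits lie mostly in the nucleus, and in many of them the promoter holds sites for nuclear respiratory factor 1 (NRF1) and for ETS factors such as GABPA.

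The promoters shown first are examples from the members whose knockout signal was at most 80% of the wild type signal (a log2 ratio of -0.32 or lower) and that hold a match upstream of the start (Atp5g2, Atp5k and Cox6a1 for NRF1, Uqcr11 as 1 of several for the ETS motif), together with that of Cycs, the member with the lowest ratio. Each line gives the 180 bases before the annotated start, 5′ to 3′ on the gene's strand, from RefSeq on GRCm38.p6, with motif matches in capitals. The first capital run of Cox6a1 and the capital runs within Atp5g2 and Atp5k are matches of the strict NRF1 motif, and the last bases of Atp5g2 begin an Sp1 match that crosses the start. The stretches are chr5:115348959-115349138 (minus strand) for Cox6a1, chr15:102671048-102671227 (minus) for Atp5g2, chr5:108434400-108434579 (minus) for Atp5k, chr10:80406822-80407001 (minus) for Uqcr11 and chr6:50566570-50566749 (minus) for Cycs.
Cox6a1: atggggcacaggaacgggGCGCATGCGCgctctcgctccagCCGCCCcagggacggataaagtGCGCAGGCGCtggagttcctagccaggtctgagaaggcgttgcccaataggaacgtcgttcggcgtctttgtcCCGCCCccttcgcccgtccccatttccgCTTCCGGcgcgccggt
Atp5g2: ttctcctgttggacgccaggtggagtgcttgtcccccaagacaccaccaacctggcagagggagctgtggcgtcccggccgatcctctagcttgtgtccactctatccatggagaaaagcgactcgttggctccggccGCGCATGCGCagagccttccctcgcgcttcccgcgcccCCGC
Atp5k: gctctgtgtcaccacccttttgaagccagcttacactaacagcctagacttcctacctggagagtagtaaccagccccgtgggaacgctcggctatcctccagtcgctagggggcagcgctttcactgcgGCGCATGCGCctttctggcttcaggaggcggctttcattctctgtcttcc
Uqcr11: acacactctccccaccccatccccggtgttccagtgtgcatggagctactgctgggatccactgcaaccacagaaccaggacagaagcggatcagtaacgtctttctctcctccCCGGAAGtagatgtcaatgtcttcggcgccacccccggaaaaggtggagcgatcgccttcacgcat
Cycs: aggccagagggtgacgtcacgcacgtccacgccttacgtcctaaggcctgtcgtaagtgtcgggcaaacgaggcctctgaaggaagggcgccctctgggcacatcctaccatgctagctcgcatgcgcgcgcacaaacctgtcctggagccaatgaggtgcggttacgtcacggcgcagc

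The motifs searched on both strands were the NRF1 core motif, the same motif with its middle base left free, CCGGAAG for ETS factors, AAGATGG for YY1 and GGGCGG for Sp1, in windows from 250 bases before to 50 after each start. Every match of the strict NRF1 motif is also a match of the looser form, and no other motif contains another. RefSeq windows were found for 59 of the 73 members, 64 windows in all. The strict NRF1 motif occurred in 5 of the 64 member windows (7.81%), against 2.00% of 6208 windows of all genes measured on these arrays and 0.971% of all 32851 windows. In Cox6a1 the match begins 162 bases before the start, in Atp5k 50 and in Atp5g2 42, and the remaining matches lie in Uqcrc1 (31 bases after the start) and in the assembly factor gene Ndufaf4. Ndufaf4 was not measured on these arrays. The 64 member windows include such genes, whereas the 6208 windows do not, so these sets are not fully alike. With the free base the motif was in 20.3% of member windows, 9.97% of windows of measured genes and 4.60% of all. CCGGAAG was in 16 of 64 member windows, 16.8% of windows of measured genes and 8.86% of all. AAGATGG was in 12.5%, 6.93% and 6.34%, and GGGCGG in 46.9%, 62.6% and 35.7%, respectively.

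Split by the array values, the windows of members at or under 80% of the wild type signal and those of the other measured members held CCGGAAG about equally, 9 of 34 and 6 of 23. The 34 windows come from 29 genes, and the 23 windows from 23 genes. The strict NRF1 motif was in 4 of 34 and 0 of 23, and with the free base in 9 of 34 and 3 of 23. Both of the overlapping windows of Ndufa5 are among those 9. These counts are of letters, with no test. The Cycs window held no exact match of the NRF1, ETS or YY1 motifs. Near matches were not counted, so this does not show that the promoter lacks such a site.

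Most respiratory chain genes read lower on the knockout array, and none of the differences reached 2-fold. Signals are MAS5 intensities, brought to the same overall level on both arrays, and a floor was set at 246.7 signal units, below which a signal carries little information. Of the 73 members, 66 were above the floor on at least 1 array, 64 on both, and 7 were at the floor on both and have no ratio. Among the 66, 57 were lower and 9 higher in the knockout, with a median log2 ratio (knockout over wild type) of -0.35. Of all 5976 measured genes 46.1% were lower and 53.9% higher, and their median was 0.04. Among the 64 members above the floor on both arrays 56 were lower. At or under 80% of the wild type signal were 35 members, against 16.6% of all measured genes, and at least 1.5-fold lower were 7, against 5.27%. At least 2-fold lower were 0 members, against 0.703% of all measured genes, and 0 were at least 2-fold higher, against 1.54%. In bulk RNA, fewer cells of a type and less RNA per cell cannot be told apart.

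**Figure D1:**
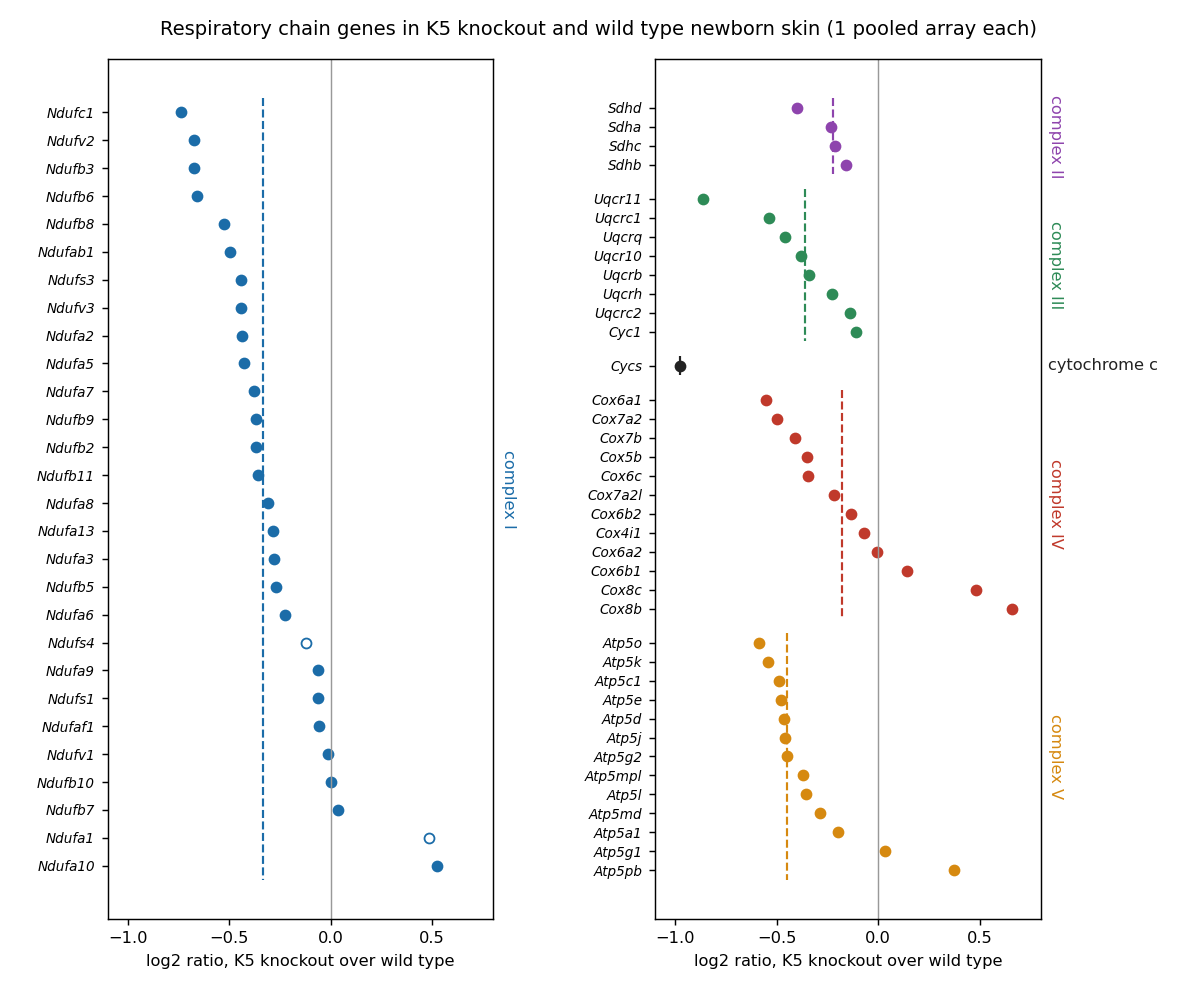
Log2 ratio of knockout over wild type (x axis) for each of the 66 measured members, grouped by complex, with the gene name on the y axis. Filled points were above the floor on both arrays, open points on 1 array, and dashed lines mark the median of each complex. The points lie to the left of 0 for 57 members, and Cycs lies farthest to the left at -0.98.

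The standard deviation of the log2 ratio between probe sets of the same gene, over 838 genes, was 0.30. A single member with a smaller difference lies within that spread between probe sets. For probe sets with a mean signal of at least 4 times the floor it was 0.23 (290 genes), and for the members 0.17 (7 genes). All these probe sets share the same 2 arrays, so the values hold no variation between animals, pools, labellings or hybridisations. A signal at 80% of wild type, -0.32 on the log2 scale, is just past the 0.30 over 838 genes. That value is a standard deviation, not a limit of the technical spread. The measured members had a standard deviation of 0.31 among themselves.

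Members with bright probe sets were lower almost throughout, whereas those with dim probe sets were divided. With a mean signal of at least 4 times the floor, 50 of 53 members were lower, with a median of -0.37 and a standard deviation of 0.23. Of all 3153 genes that bright, 51.4% were lower, with a median of -0.01. The 3 exceptions were Ndufb10, Ndufb7 and Cox8c. Below that level, 7 of 13 measured members were lower, with a median of -0.060. Of all 2823 measured genes in that range 40.1% were lower, with a median of 0.09.

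**Figure D2:**
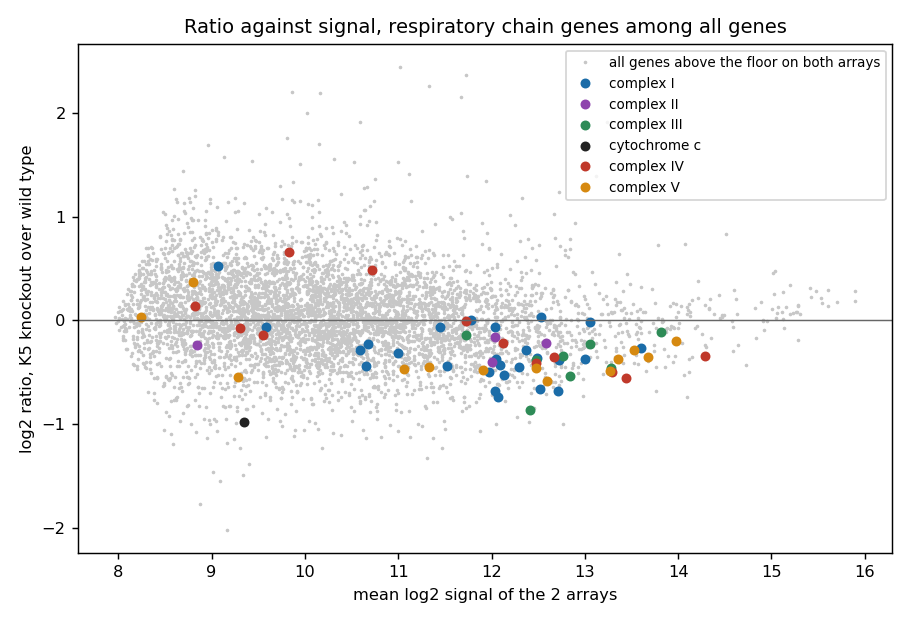
Log2 ratio of knockout over wild type (y axis) against the mean log2 signal of both arrays (x axis). Grey points are all genes above the floor on both arrays and coloured points the 64 members above it, by complex. The bright members form a band under 0, and the members above 0 lie mainly among the dimmer signals.

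Complex I takes electrons from NADH, and 28 of its 31 members were measured. Lower in the knockout were 24 of them, and 4 were higher, with a median of -0.33. Of these members 14 had a log2 ratio of -0.32 or lower, against 16.6% of all measured genes. A ratio of 0.32 or more was found for 2, against 21.8% of all measured genes. Its 4 measured catalytic core genes were not alike. Ndufv2, a subunit of the NADH-oxidising module with an iron-sulfur cluster, read 5308 in K5-/- skin and 8480 in wild type skin, a ratio of -0.68. A second Ndufv2 probe set read 364 and 514, with a ratio of -0.50. Ndufs3 read 4317 and 5870 (-0.44). Ndufv1, which binds NADH and FMN, read 8477 and 8555, and Ndufs1, which carries iron-sulfur clusters, read 2732 and 2850. The last pair had ratios of -0.013 and -0.061, far within the spread between probe sets.

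In the accessory subunits of the matrix arm, which reaches into the mitochondrial interior, 7 of 7 measured genes were lower, with a median of -0.38. Ndufv3 and Ndufa2 were each at -0.44, Ndufa5 at -0.43 and Ndufa7 at -0.38. Ndufa6 followed at -0.23 and Ndufa9 at -0.063. Ndufs4, which is needed for a stable NADH module, read 170 in K5-/- skin, below the floor, and 269 in wild type skin, so it was at least 1.09-fold lower. Ndufa12 read 169 and 76.0 and was at the floor on both arrays.

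The accessory subunits of the membrane arm, which holds the proton channels, had a standard deviation of 0.38, against 0.16 in the matrix arm. Of 15 measured genes 11 were lower, with a median of -0.31. Ndufc1 had the lowest ratio of complex I, -0.74, with signals of 3325 in K5-/- skin and 5547 in wild type skin. Ndufb3 read 3315 and 5297 and Ndufb6 read 4674 and 7376, with ratios of -0.68 and -0.66. Ndufb8 was at -0.53, Ndufb9 and Ndufb2 at -0.37, and Ndufb11 at -0.36. Ndufa8 was at -0.31, Ndufa13 at -0.29, Ndufa3 at -0.28 and Ndufb5 at -0.27. Further probe sets above the floor were at -0.076 for Ndufa3 and -0.23 for Ndufb2. Ndufb10 (3524 and 3518) and Ndufb7 (5975 and 5828) read nearly the same on both arrays. Ndufa10 read 642 in K5-/- skin and 446 in wild type skin, a ratio of 0.52. Ndufa1 read 346 and 180, so it was at least 1.40-fold higher. Both are dim, and Ndufc2 was at the floor on both arrays with 197 and 195.

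Ndufab1, the mitochondrial acyl carrier protein that is also a subunit of complex I, read 3384 and 4771 (-0.50). The assembly factor gene Ndufaf1 read 750 and 782 (-0.060), and Ndufaf4 was at the floor on both arrays with 225 and 204.

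Complex II is the succinate dehydrogenase that also works in the tricarboxylic acid cycle, and 4 of 4 members were lower, with a median of -0.22. Sdhd, which anchors the enzyme in the membrane, read 3564 in K5-/- skin and 4709 in wild type skin, a ratio of -0.40. The flavoprotein gene Sdha read 425 and 499 (-0.23), the other anchor gene Sdhc 5704 and 6620 (-0.21), and the iron-sulfur subunit gene Sdhb 3981 and 4438 (-0.16). Of these 4, Sdhd alone had a ratio of -0.32 or lower, against 16.6% of all measured genes, and 4 genes are too few to compare with that share.

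In complex III, the cytochrome bc1 complex, 8 of 8 members were lower, with a median of -0.36. At -0.32 or below were 5 of them, against 16.6% of all measured genes. Uqcr11, a small subunit, read 4040 in K5-/- skin and 7351 in wild type skin, 1.82-fold lower. The core protein gene Uqcrc1 read 6111 and 8861 (-0.54), while Uqcrc2, its partner in the core, read 3241 and 3567 (-0.14). Uqcrq, which lies close to cytochrome b, read 8462 and 11616 (-0.46). Uqcr10 was at -0.38, Uqcrb at -0.34 and the hinge protein gene Uqcrh at -0.23, with signals of 7854 and 9185. Cyc1, the haem-bearing cytochrome c1, read 13920 and 15030 (-0.11), and its other probe set went the other way, with 8053 and 6835 (0.24).

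Cycs had the lowest ratio of all measured members. It carries electrons from complex III to complex IV and also serves in apoptosis. Its probe set read 465 in K5-/- skin and 914 in wild type skin, 1.97-fold lower. It is dim, and a floor at the 60th percentile of all signals gave a ratio of -0.47, as a bound. Under the other alternatives it ran down to -1.05, and with each of the 3 other scalings it was past 2-fold.

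Complex IV, the cytochrome c oxidase, had the largest share of higher members among the complexes: 9 of 12 measured members were lower and 3 were higher, and the median was -0.18. That median ran from -0.28 with a floor at the 60th percentile to -0.10 with a pseudocount in place of the floor. Several of its subunits exist in a form found in most tissues and in a form of particular tissues. Among 7 measured subunits of the first kind 6 were lower, with a median of -0.35. Cox6a1 read 9151 in K5-/- skin and 13439 in wild type skin (-0.55), Cox7a2 8423 and 11907 (-0.50), and Cox7b 4938 and 6570 (-0.41). Cox5b was at -0.35 and Cox6c at -0.34. Cox4i1 read 615 and 646 (-0.071), and Cox6b1 read 474 and 430 (0.14). Cox7a2l, which joins complexes III and IV into supercomplexes, was at -0.22. Cox5a and Cox8a were at the floor on both arrays, with signals of at most 98.5.

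Of the 5 tissue isoforms of complex IV, 4 were measured, 2 lower and 2 higher, with a median of 0.24. Cox8b, the form of heart, skeletal muscle and brown fat, read 1143 in K5-/- skin and 725 in wild type skin, a ratio of 0.66, and its other probe set read 318 and 265 (0.27). Cox8c, the testis form, read 1989 and 1422 (0.48), and its other probe set was at the floor on both arrays. Cox6a2, the heart and muscle counterpart of Cox6a1, read 3390 and 3410, nearly the same on both arrays. Cox6b2, another testis form, read 715 and 785 (-0.14). Another Cox6b2 probe set read 156 in K5-/- skin, below the floor, and 356 in wild type skin, a bound of -0.53. The last one was at the floor on both arrays. Cox7a1, the muscle counterpart of Cox7a2, was at the floor on both arrays with 83.7 and 117. On the same arrays 18 of 19 measured skeletal muscle markers were higher in the knockout, with a median of 0.23 and a summed signal of 151188 against 126725. Mb, Myh2 and Myh4 were at the floor. Brown fat markers could hardly be read, with Ucp1 at the floor and Cox8b itself among the 3 measured. Of those 3, 2 were lower and Cox8b was higher, with a median of -0.15. The part of muscle in the isoform values was not tested.

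In complex V, the ATP synthase, 11 of 13 measured members were lower, with a median of -0.45. At -0.32 or below were 9 of the 13, against 16.6% of all measured genes. All 4 measured genes of F1, which is made of the ATP-making head and a central stalk, were lower. Of these, Atp5a1 alone encodes a subunit of the head. Atp5c1 read 8321 in K5-/- skin and 11676 in wild type skin (-0.49), with a second probe set at -0.30, and Atp5e read 3246 and 4529 (-0.48). Atp5a1, the alpha subunit, read 15068 and 17317 (-0.20). Atp5d read 1814 and 2502 (-0.46). Of its other 4 probe sets, 2 were lower at -0.29 and -0.22, 1 was at the floor and 1 read 292 and 198, the opposite direction.

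The peripheral stalk holds the F1 head in place. In it, Atp5o read 5062 in K5-/- skin and 7600 in wild type skin, a ratio of -0.59, and Atp5j read 4859 and 6690 (-0.46). The dim Atp5pb read 505 and 391, with a ratio of 0.37, the highest of complex V. Atp5g1 and Atp5g2 encode the same mature c subunit of the rotor. Atp5g2 read 2201 and 3009 (-0.45) and Atp5g1 read 306 and 299 (0.035). Among the small membrane subunits Atp5k read 517 and 753 (-0.54), Atp5mpl was at -0.37, Atp5l at -0.35 and Atp5md at -0.29. The other Atp5l probe set read 225 in K5-/- skin, below the floor, and 251 in wild type skin, a bound of -0.026. Atp5j2 was at the floor on both arrays.

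The medians of the complexes ran from -0.45 (complex V) to -0.18 (complex IV). The difference between any 2 complexes was not tested. Members spread around these medians with a standard deviation of 0.31 in complex I, 0.38 in complex IV and 0.27 in complex V. The direction of some members depended on the processing: Ndufa9, Ndufv1, Cox6a2, Cyc1, Ndufb10, Atp5g1 and Atp5d changed sign under at least 1 alternative. In all, 52 of the 57 lower members were lower under every alternative that gave them a value.

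**Figure D3:**
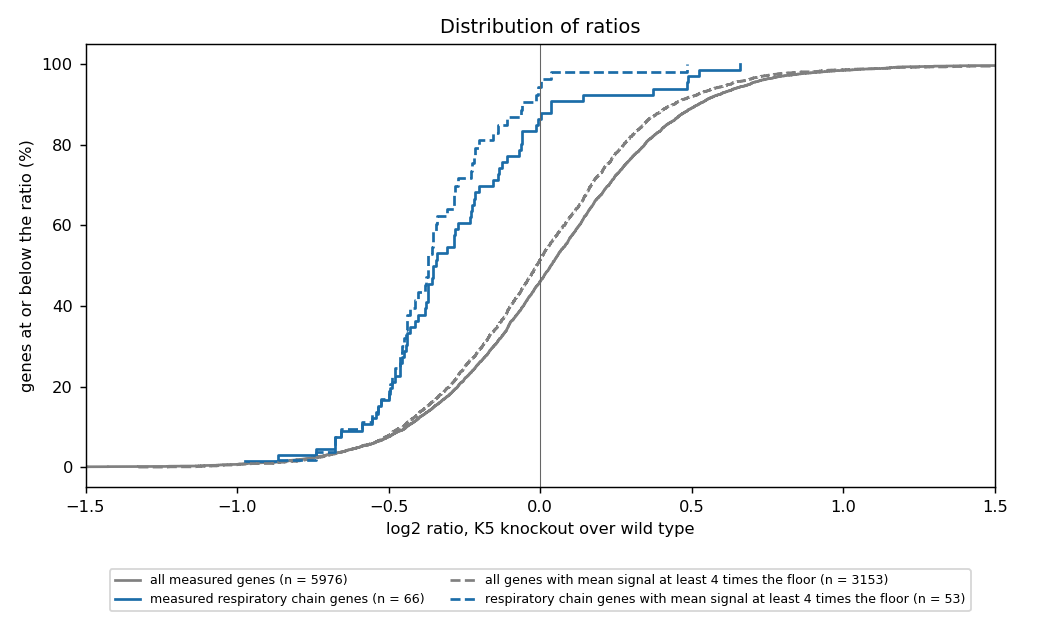
Cumulative share of genes (y axis, percent) with a log2 ratio at or below the value on the x axis. Solid lines show all 5976 measured genes (grey) and the 66 measured members (blue), and dashed lines the 3153 genes and 53 members with a mean signal of at least 4 times the floor. The blue curves rise to the left of the grey curves, and at 0 the solid curves stand at 86.4% for members and 46.1% for all genes.

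Other mitochondrial genes did not all share the direction. Mitochondrial ribosomal protein genes, whose products translate the mitochondrially encoded subunits, were lower in 50 of 58 measured cases, with a median of -0.31, near that of the respiratory chain. Mrpl54 and Mrpl21 were at -0.76 and -0.75, and Mrpl41 and Mrpl3 at 0.49 and 0.40. The genes of the tricarboxylic acid cycle, which feeds the chain with NADH and succinate, were lower in 12 of 15, with a smaller median of -0.16. Pdha1, of the pyruvate dehydrogenase that supplies the cycle, was at -0.34, Idh3a at -0.33, Dlst at 0.26 and Ogdh at 0.16.

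Assembly factors outside the symbols above were lower in 6 of 15 measured cases, with a median of 0.04. Cox16, an assembly factor of complex IV, was at -0.75, Coa3 at -0.36, Acad9, which helps to assemble complex I, at 0.65 and Coa6 at 0.51. Carriers and porins had a median near 0 (0.0018), 5 of 10 lower, and like that of the assembly factors this median changed sign with the scaling. Vdac2 was at -0.45, Vdac3 at -0.30, Etfdh at 0.32 and Nnt at 0.18. Slc25a3, the phosphate carrier gene, was above the floor in K5-/- skin alone (354 against 146), at a bound of 0.52. Mitochondrial antioxidant enzymes had a median of -0.065, 3 of 5 lower, with Sod2 and Gpx4 at -0.13 each, Prdx3 at 0.27 and Gpx1 at 0.17.

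Regulators of mitochondrial biogenesis were divided, 5 of 10 lower, with a median of -0.037. Gabpb1, the partner of GABPA, was at -0.35, the single-strand DNA binding protein gene Ssbp1 at -0.42, Esrra at 0.35 and Yy1 at 0.78. Pprc1 was above the floor in K5-/- skin alone (356 against 242), at a bound of 0.53. Ppargc1a, Tfam and Polg were at the floor on both arrays. Cytosolic ribosomal protein genes were lower in 7 of 26, with a median of 0.07, Rps4l at -0.64 and Rpl13a at -0.12, Rps29 at 0.54 and Rps27 at 0.44. Rps13 was above the floor in wild type skin alone (301 against 232 in K5-/- skin), at a bound of -0.29. Glycolysis genes were lower in 10 of 16, with a median of -0.071, Pgk1 at -0.51, Pfkl at -0.47, Eno2 at 0.81 and Hk2 at 0.75.

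**Figure D4:**
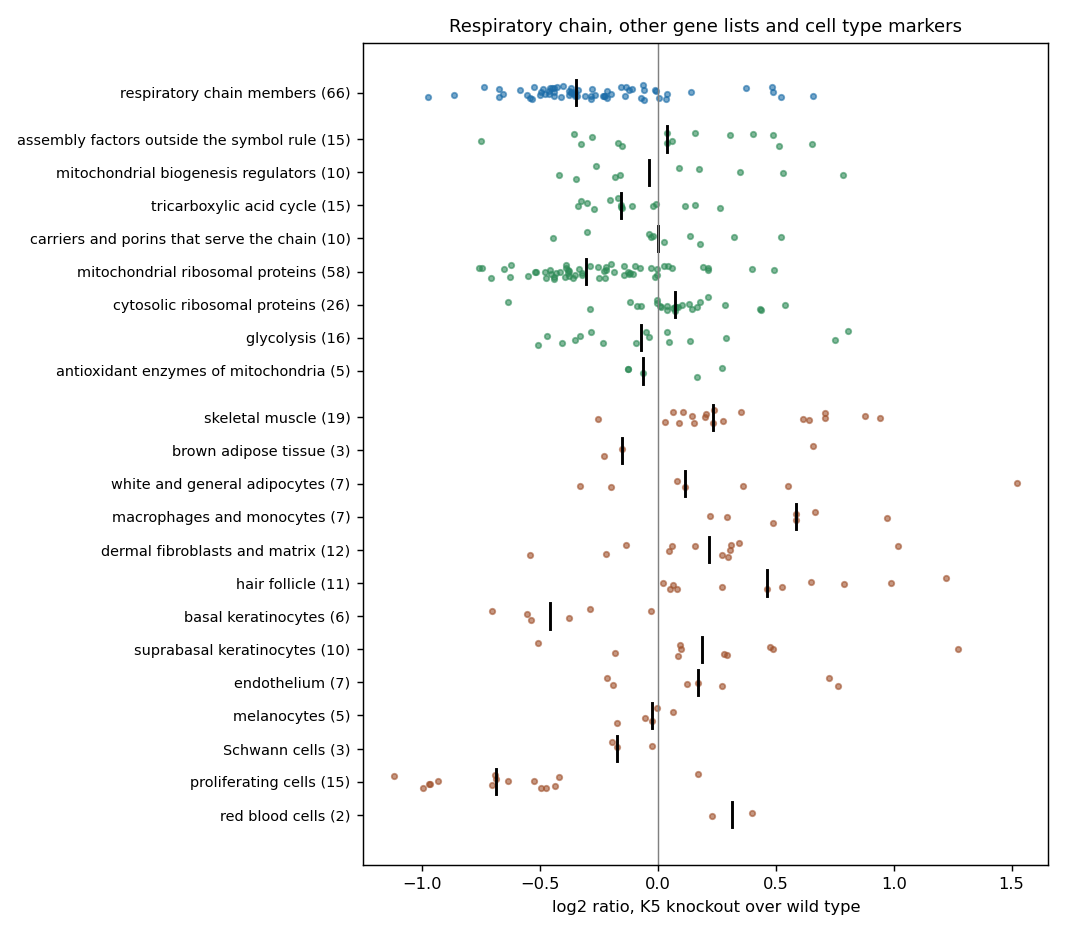
Log2 ratios of knockout over wild type (x axis) for the measured genes of each list (y axis, number of genes in brackets), with the respiratory chain on top, other metabolic and ribosomal lists in green and cell type markers in brown. Each point is a gene and black bars are medians. The lowest medians are those of proliferating cells (-0.69), basal keratinocytes (-0.46), the respiratory chain (-0.35) and mitochondrial ribosomal proteins (-0.31).

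Markers of several cell types differed between the arrays, and their part in the respiratory chain values was not tested. Markers of proliferating cells were lower in 14 of 15 measured cases, with a median of -0.69 and a summed signal of 24154 in K5-/- skin against 38595 in wild type skin, and Mcm6 was at the floor. Basal keratinocyte markers were lower in 6 of 6, with a median of -0.46 and a sum of 9647 against 13073, and their defining members Krt5, Krt14 and Krt15 were at the floor on both arrays. Suprabasal markers were higher in 8 of 10, with a median of 0.19 and a sum of 201674 against 173335. Macrophage markers were higher in 7 of 7 (9273 against 6321), with Itgam, Marco and Msr1 at the floor. Hair follicle markers were higher in 11 of 11 (29927 against 21602), with Foxn1 at the floor, and dermal matrix markers in 9 of 12 (238449 against 210032), with Vim at the floor. The medians were 0.11 for adipocytes (7 measured), 0.17 for endothelium (7), -0.025 for melanocytes (5), -0.17 for Schwann cells (3) and 0.31 for red blood cells (2). For Actb the 3′ to 5′ signal ratio, a sign of RNA quality, was 1.04 in K5-/- skin against 1.06 in wild type skin, and the Gapdh ratios were 0.841 and 0.831. Krt5 itself read 81.2 and 46.6, below the floor, so it does not check the genotype labels.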

How the data were processed

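Per the labels' protocols, skin of 6 newborn animals per group was frozen, RNA was extracted with TRIzol, pooled by group and cleaned on an RNeasy column, and biotinylated cRNA was made from 2 µg. The deposited values are linear intensities, 1 per probe set, and the submitters' processing notes name MAS5. For the MAS5 version, scaling target and detection calls, the sources used here give nothing. Deposited columns had 2% trimmed means of 993.9 and 994.2, which hides any difference between the pools in RNA per cell.

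Both columns were scaled to the same 2% trimmed mean (factors 1.0001 and 0.9999), raised to a floor at the 40th percentile of all values (246.7) and turned into log2 ratios (Python 3.11.15, numpy 2.4.6, pandas 2.3.3). Genes were named from the platform annotation where a probe set has 1 symbol, and all 73 members were found by identifier in the RefSeq table of GRCm38.p6. Another 10 probe sets with several symbols, 1 or more of which follows the rule, were left out. A gene is represented by its brightest probe set, and it counts as measured above the floor on at least 1 array. A ratio with 1 array at the floor is a bound. With 1 array per group no test was run. The ratio calculation was tested on simulated data.

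The members and lists were chosen with earlier results of these data known. Named are all measured members, with both signals for the lowest and highest 3 ratios of each complex and for those at least 1.5-fold different, and of genes measured on each of the 2 arrays, the 2 lowest and 2 highest of each other mitochondrial, ribosomal or glycolysis list. Slc25a3, Pprc1 and Rps13, above the floor on 1 array, fall outside this rule and were named after their values were seen. Markers are given by counts and sums. Sequences for some members were not used here. Precision is limited throughout by the number of arrays.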

Additional observations from a re-analysis of the deposited data

How the results depend on the processing

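No paired analysis was possible because each group has 1 array and the labels give no replicate numbers, and no array could be left out. The median log2 ratio of the measured members stayed between -0.38 and -0.28 over 14 alternatives. It was -0.29 with quantile normalization and with a lowess correction, -0.28 with a pseudocount in place of the floor and -0.28 as a mean. Complex I was at -0.28 with the pseudocount and -0.27 as a mean. Complex IV was at -0.28 with probe sets averaged and also with a floor at the 60th percentile, but at -0.10 with the pseudocount and -0.11 as a mean. Complex V was at -0.33 with plain probe sets only and as a mean, and Cycs at -0.47 with that higher floor. The median of complex II ran from -0.26 to -0.18, and that of complex III from -0.42 to -0.27. The number of measured members changes with the setting. In the values reported 57 of 66 were lower, against 46.1% of all measured genes. With plain probe sets only 42 of 51 were lower, against 45.9%, and with the pseudocount 60 of 73, against 43.0%. Between 26 and 40 were at or under 80% of the wild type signal. With the lowess correction these were 26 of 66, against 18.4% of all measured genes, and with the pseudocount 35 of 73, against 10.2%. With the probe sets of several symbols added, which was chosen after seeing the data, these counts were 63 and 40 of 73. Of 505 single-member values over 8 alternatives, 499 stayed within 0.30 of the value reported, 5 moved by more and kept their direction, and Atp5d turned from -0.46 to 0.24 with plain probe sets only. Another 6 members, with ratios between -0.11 and 0.035, changed sign within 0.30 under at least 1 alternative. The median of all measured genes was -0.0037 with quantile normalization. Alternatives for the other lists were also added after seeing the data, and the median of mitochondrial ribosomal proteins ran from -0.34 to -0.22.

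Dim members (below 4 times the floor) rest on signals where a ratio depends on the floor, and the 7 members at the floor on both arrays are not shown to be equal. There is no measure of the spread between animals or pools.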
